A study of Homo sapiens with 18 samples.

Results

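The response of TG2 knockout NB4 cells to 48 h of all-trans retinoic acid (ATRA) was read from 6 of the 18 arrays of the series, chosen by their titles: 3 arrays of knockout cells treated for 48 h with 1 µM ATRA and 3 arrays of untreated knockout cells. NB4 is an established human acute promyelocytic leukaemia line, obtained here from DSMZ, and TG2 (tissue transglutaminase) is the protein encoded by TGM2. The study also profiled wild-type NB4 cells and a 72 h time point, in 3 arrays per genotype and time, to set the differentiation of the knockout line beside that of the wild type. The wild-type arrays at 0 and 48 h and the knockout arrays at 72 h are used below for the difference between lines and for the later time. Sample titles and genotype labels say knockout, whereas the short sample codes carry KD. The labels do not say how TGM2 was altered, which part of the gene is affected, or whether the line is 1 clone. Replicates are labelled as biological without a statement of separate cultures, so p-values measure the spread between these samples, which may be technical. RNA was taken from the whole culture, and a gene used by fewer cells cannot be told apart from less RNA per cell.

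Retinoic acid acts through nuclear receptors of the RAR family, which pair with RXR receptors on direct repeats of a short half-site in DNA. Promyelocytic leukaemia cells carry a fusion of PML with RARA that holds the cells at the promyelocyte stage, and pharmacological ATRA releases this block and drives the cells towards a neutrophil-like state. Promyelocytes are dividing cells that make azurophil granule proteases, while later neutrophil stages stop dividing, build specific granules and acquire receptors for chemoattractants, adhesion molecules and an oxidative burst. TG2 is a calcium-dependent enzyme that cross-links proteins between glutamine and lysine side chains, and it is known as a retinoid-induced gene.

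Each value is the deposited level of a probe set on an Affymetrix gene array, taken as log2, so a difference of 1 is a 2-fold change. Array values are given in the order of replicates 1, 2 and 3, and changes with the standard error (SE) of the fit, in log2 units. The 6 array medians lay between 6.12 and 6.26. The middle range of the values was narrower after treatment: the lower quartile moved from 4.66–4.69 to 4.80–4.88 and the upper quartile from 8.10–8.13 to 7.84–7.94. Treated arrays were also less alike, with Pearson correlations across probe sets of 0.9656–0.9788 against 0.9943–0.9957 among the untreated ones, and a median SD over probe sets of 0.243 against 0.0985. The myeloid identity of the label was borne by MPO (myeloperoxidase) and PRTN3 (proteinase 3), at mean levels of 12.68 and 12.06 before treatment. The 11 measured promyelocyte markers, with both of these among them, spanned 4.35 to 12.68. Markers of other cell types spanned mean levels before treatment of 3.53 to 9.10 (monocyte and macrophage, CD4 highest). The ranges were 3.93 to 10.40 for lymphocytes (NKG7 highest) and 4.24 to 7.01 for erythroid cells and megakaryocytes (KLF1 highest). Eosinophil, basophil and mast cell markers reached higher, from 4.08 to 11.14, with PRG2 at 10.53 and HDC at 9.60. CD163, MS4A1, CD3E and HBB, named for macrophages, B cells, T cells and red cells, had means of 4.42, 4.01, 5.39 and 5.55 before treatment. After treatment the means were 4.71, 4.40, 5.72 and 5.50, and none of these changes was called. Other members of the same lists were called. Of 17 monocyte and macrophage markers 3 rose (17.6%), by up to 2.81. Of 15 lymphocyte markers 5 rose (33.3%) and 2 fell (13.3%), and of 11 erythroid and megakaryocyte markers 3 rose (27.3%). Over all genes, with 1 probe set each, 18.3% rose and 24.5% fell, so the share of risen monocyte and macrophage markers was near that background.

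TGM2, the targeted gene, stood at 6.30, 6.51 and 6.36 in untreated knockout cells and at 11.01, 10.56 and 11.29 after 48 h of ATRA. The treated arrays lay far above the untreated ones without overlap. The change was 4.56 ± 0.19 (23.6-fold, adjusted p = 1.21e-10, limma with Benjamini-Hochberg adjustment over all probe sets). In wild-type cells the 48 h arrays read 12.34, 12.06 and 12.40 and the change was 5.84. All 3 knockout arrays at 48 h were below all 3 wild-type arrays. The knockout response was smaller by 1.28 (95% interval of the difference −1.84 to −0.71, unadjusted p = 0.0002), which was not called after adjustment over all probe sets (adjusted p = 1). Because the labels do not place the alteration within the gene, this probe set may lie outside it and does not check the label. Peptidylarginine deiminases are enzymes that turn arginine into citrulline. Of 13 measured transglutaminases and deiminases 6 rose (46.2%) and 0 fell, with a median change of 0.29. Over all genes, with 1 probe set each, 18.3% rose and 24.5% fell. Besides TGM2 the members that rose were PADI2, PADI4, TGM3 (1.16 ± 0.14), PADI3 (0.64) and TGM4 (0.61). Mean levels of the 13 before treatment were 5.02 to 6.73, with a median of 5.60. In the second-dimmest 25% of probe sets, at mean levels of 4.79 to 6.18, 20.3% rose and 9.38% fell, with a median of 0.19. The part of brightness in the counts of this list was not tested.

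At 48 h 13783 of 33297 probe sets, or 41.4%, differed from untreated knockout cells at an adjusted p under 0.05, the threshold for every call below. Of these, 7148 (21.5% of those tested) were higher and 6635 (19.9%) lower. Among changes of at least 2-fold the balance lay with falls: 2660 probe sets (7.99%) fell and 1624 (4.88%) rose. Counted with 1 probe set per gene, 3366 of 18417 genes (18.3%) rose, 4513 (24.5%) fell, and the median change was 0.08. These shares are the background for each gene list below. The split moved with the scaling, from 51.9% of calls higher as deposited to 43.4% with arrays centred on their median and 39.7% among brighter probe sets. It also moved with brightness. Among the dimmest 25% of probe sets 23.2% rose and 3.88% fell with a median change of 0.34, and among the brightest 25% 19.4% rose and 42% fell with a median of −0.26. The part that this narrowing of the range has in the smaller rises of dim probe sets was not tested.

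**Figure D1:**
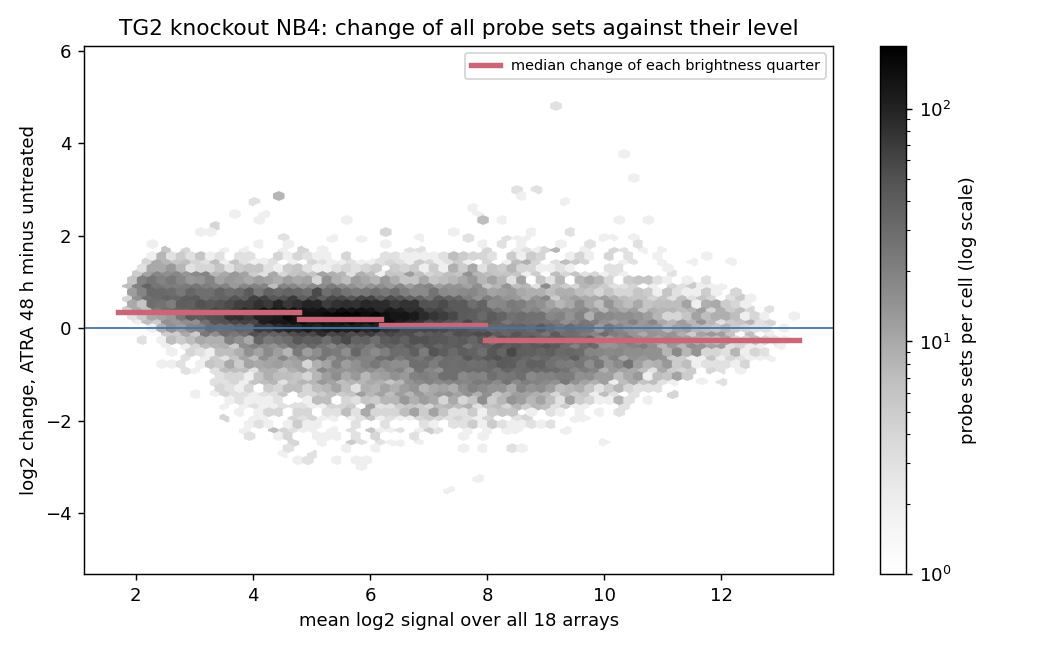
Change from untreated to 48 h ATRA in TG2 knockout cells (vertical axis, log2) against the mean level of each probe set (horizontal axis, log2), with shading for the number of probe sets and red lines for the median in each of 4 brightness classes of equal size. The class medians run from 0.34 among the dimmest to −0.26 among the brightest probe sets.

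The 12 largest rises were those of BPI, TGM2, ALOX5AP, FGR, PADI2, CCL24, DHRS3, PRAM1, DEFA4, PSMB9, CD52 and PSMB8. BPI, an azurophil granule protein that binds bacterial endotoxin, read 5.23, 4.87 and 5.13 before and 9.54, 9.24 and 10.75 after treatment. It rose by 4.77 ± 0.33 (27.2-fold, adjusted p = 3.87e-08). ALOX5AP, the partner protein of 5-lipoxygenase in leukotriene synthesis, went from 7.29, 7.12 and 7.07 to 11.35, 11.11 and 11.75, a rise of 4.24 ± 0.18 (18.9-fold). FGR, a Src family kinase of myeloid cells, rose 15-fold, from 6.56, 6.38 and 6.32 to 10.25, 10.06 and 10.66. PADI2 rose 11.4-fold, CCL24, an eosinophil-attracting chemokine, 11.2-fold, and DHRS3, a retinal reductase, 9.08-fold. PRAM1, an adaptor protein known as a target of retinoic acid, reached 10.89, 10.97 and 10.91 from 7.96, 7.78 and 7.62, an 8.79-fold rise with little spread over the treated arrays. DEFA4 (a defensin) rose 8.11-fold and CD52 (a small surface glycoprotein) 7.91-fold. PSMB9 (8.06-fold) and PSMB8 (7.69-fold) are catalytic subunits of the immunoproteasome, and both were among the 12 largest rises.

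The 12 largest falls of the same ranking were from 7.94-fold to 27.9-fold. CYTL1, a secreted cytokine-like protein, read 11.49, 11.48 and 11.46 before and 6.83, 6.71 and 6.49 after, and fell by 4.80 ± 0.14 (adjusted p = 4.71e-12). VIM, which encodes the intermediate filament vimentin, fell by 3.96 ± 0.55 from 10.80, 10.93 and 10.99 to 6.07, 6.73 and 8.03. Its treated arrays were spread over nearly 2 log2 units, yet the highest stayed below every untreated array. CYP1B1, an oxidising cytochrome P450, fell by 3.80 ± 0.50, and LYZ, which encodes lysozyme, by 3.60 ± 0.25, from 9.90, 9.76 and 9.72 to 6.54, 5.91 and 6.14. LHFPL6 fell by 3.56 and HDC, the enzyme that makes histamine, fell by 3.42. The transcription factor EBF3 fell by 3.27. MMP9, the gelatinase of neutrophil granules, fell by 3.16 ± 0.29. PRG2, the eosinophil major basic protein, fell by 3.03 and NQO1, a quinone reductase, by 2.99. RNASE2CP fell by 3.12; it is a near copy of RNASE2, so their probes may share signal. PCGF6, a Polycomb-group protein, fell by 3.30 on its named probe set and by 1.81 on its other one. All 24 genes were selected as called and without overlap between the groups. Over all probe sets 57.5% had no overlap between the groups, so neither property is a further finding for these genes. The same share applies wherever a lack of overlap is given for a single gene below.

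**Figure D2:**
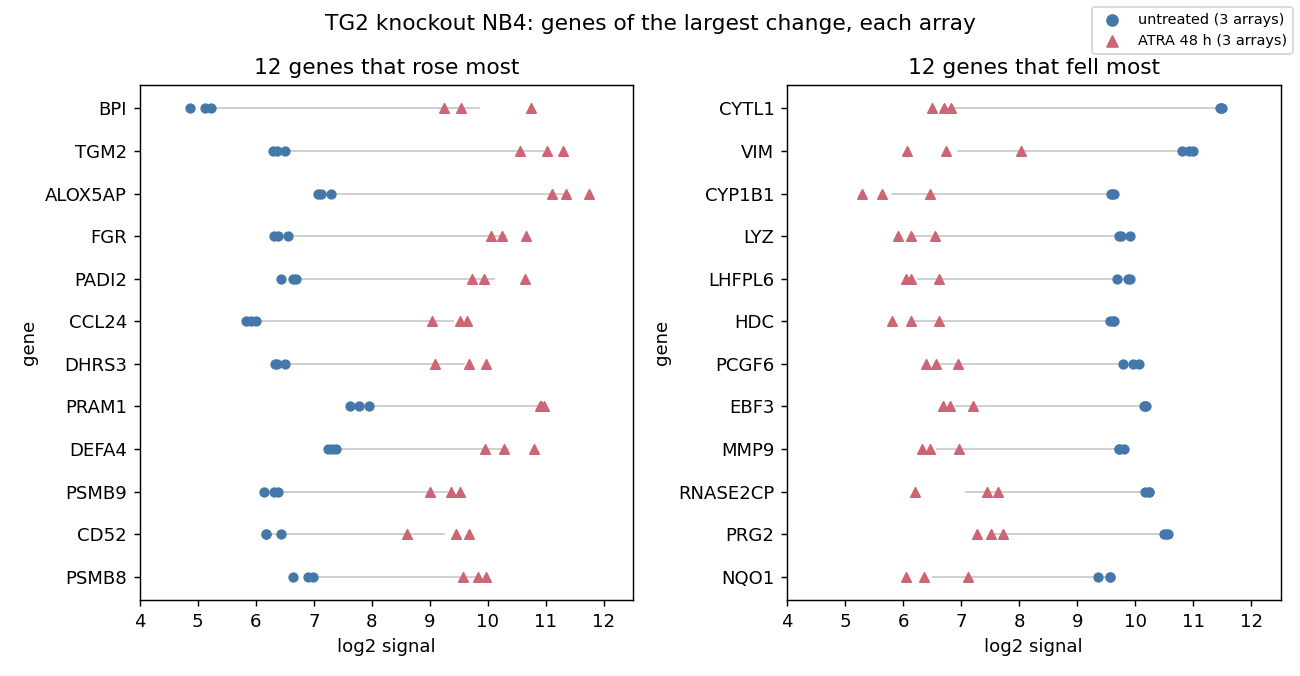
Level on each array (log2) of the 12 genes with the largest rise and the 12 with the largest fall. They were taken among called probe sets of a single named gene without overlap between the groups. Circles mark untreated and triangles 48 h ATRA knockout arrays, with a line between the group means. BPI runs from 4.87–5.23 to 9.24–10.75 and CYTL1 from 11.46–11.49 to 6.49–6.83, while the treated arrays of VIM are the most spread.

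Of 24 measured genes of retinoid signalling and metabolism 11 rose (45.8%), 2 fell (8.33%) and 11 were not called, with a median change of 0.28. Their median level before treatment was 5.55. The second-dimmest 25% of probe sets, at mean levels of 4.79 to 6.18, had a median change of 0.19. The part of brightness in the smaller rises of this list was not tested. RARB, a retinoic acid receptor whose own promoter carries a known response element, read 4.33, 4.68 and 4.54 before and 6.11, 5.56 and 6.73 after. The groups did not overlap, and the rise of 1.62 ± 0.33 was 3.07-fold (adjusted p = 0.00115). The receptor partner RXRA fell by 1.43 ± 0.15, from 9.42, 9.43 and 9.31 to 8.02, 8.06 and 7.80. RARG rose by 0.60, and DHRS3 had the largest rise of the list. Among enzymes that break down retinoic acid, CYP26A1 rose by 0.78 ± 0.13 (5.57, 5.43 and 5.37 before, 6.23, 6.40 and 6.07 after), CYP26B1 by 0.81 and CYP26C1 by 0.44. Of enzymes that make it, the retinol dehydrogenase RDH10 fell by 1.72 ± 0.15, from 8.66, 8.74 and 8.56 to 7.16, 6.70 and 6.93. DHRS9 rose by 0.78, ALDH1A1 by 0.55 and ALDH1A2 by 0.54. PLAAT4, a retinoid-inducible phospholipid enzyme, rose by 1.85 ± 0.24, from 4.36, 4.86 and 4.88 to 6.63, 6.56 and 6.46.

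The promoters of RARB and CYP26A1 are shown because these were the risen retinoid genes with a direct repeat of the receptor half-site near the start. A DR5 was searched as 2 half-sites with 5 bases between, where a half-site was AGGTCA or AGTTCA, as well as GGGTCA or else GGTTCA, on both strands in RefSeq windows of 300 bases (GRCh38.p14) around the start of 14237 of the 18417 genes. Some genes have several windows. With 1 window per gene, 9 of 14237 genes (0.0632%) held a DR5, 1 of them among 22 retinoid and 0 among 21 ATRA-induced genes, and 4 genes (0.0281%) held a DR2, the same with 2 bases between. Over all windows, a DR5 stood in 16 of 20107, and a DR5 or DR2 in 2 of the 68 windows of the 43 retinoid and ATRA-induced genes, which are those shown. Capitals mark the repeat, the sequences run 5′ to 3′ on the plus strand, and both genes are on that strand, at chr3:25428113-25428282 and chr10:93073743-93073912. In CYP26A1 the repeat reads on the opposite strand, as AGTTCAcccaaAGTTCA. A match describes letters and not binding.
RARB: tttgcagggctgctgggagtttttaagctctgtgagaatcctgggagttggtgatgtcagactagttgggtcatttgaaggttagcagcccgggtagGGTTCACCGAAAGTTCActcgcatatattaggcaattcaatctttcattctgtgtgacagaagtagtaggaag
CYP26A1: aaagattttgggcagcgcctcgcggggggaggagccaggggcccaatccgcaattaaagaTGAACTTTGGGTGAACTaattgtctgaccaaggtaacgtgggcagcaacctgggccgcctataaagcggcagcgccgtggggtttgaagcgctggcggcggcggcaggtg

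Genes known from the literature to be induced by ATRA in promyelocytic cells were the list with the largest share of rises: 18 of 27 (66.7%) rose and 3 (11.1%) fell, with a median change of 1.23. The list was drawn up from what is known of such cells, NB4 among them, and is not independent evidence of direction. Beyond TGM2, FGR, PRAM1 and CD52, PADI4, the nuclear deiminase of neutrophils, read 6.26, 6.25 and 6.18 before and 8.65, 8.58 and 8.44 after, a rise of 2.33 ± 0.12. The transcription factor IRF1 rose by 2.25 ± 0.14, from 7.31, 7.10 and 7.21 to 9.61, 9.38 and 9.39. Neither gene's treated arrays came near its untreated ones. ASB2, a ubiquitin ligase adaptor, and TNFAIP2 each rose by 2.12, CD38, an ectoenzyme used as a surface sign of retinoid response, by 1.61, and NDRG1 by 1.43. UBA7, the activating enzyme of the ISG15 modifier, rose by 1.32, HIC1 by 1.23 and ID1 by 1.18. TNFSF10, the death ligand TRAIL, fell by 1.84 ± 0.16, RIGI, a sensor of viral RNA, by 1.26, and SLC22A4, a carnitine-family transporter, by 0.93. The median of the list on the single treated arrays was 1.26, 1.18 and 1.28, so the 3 arrays were close in this median. Single members could differ more between the treated arrays, as CD52 did at 9.45, 9.68 and 8.60.

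**Figure D3:**
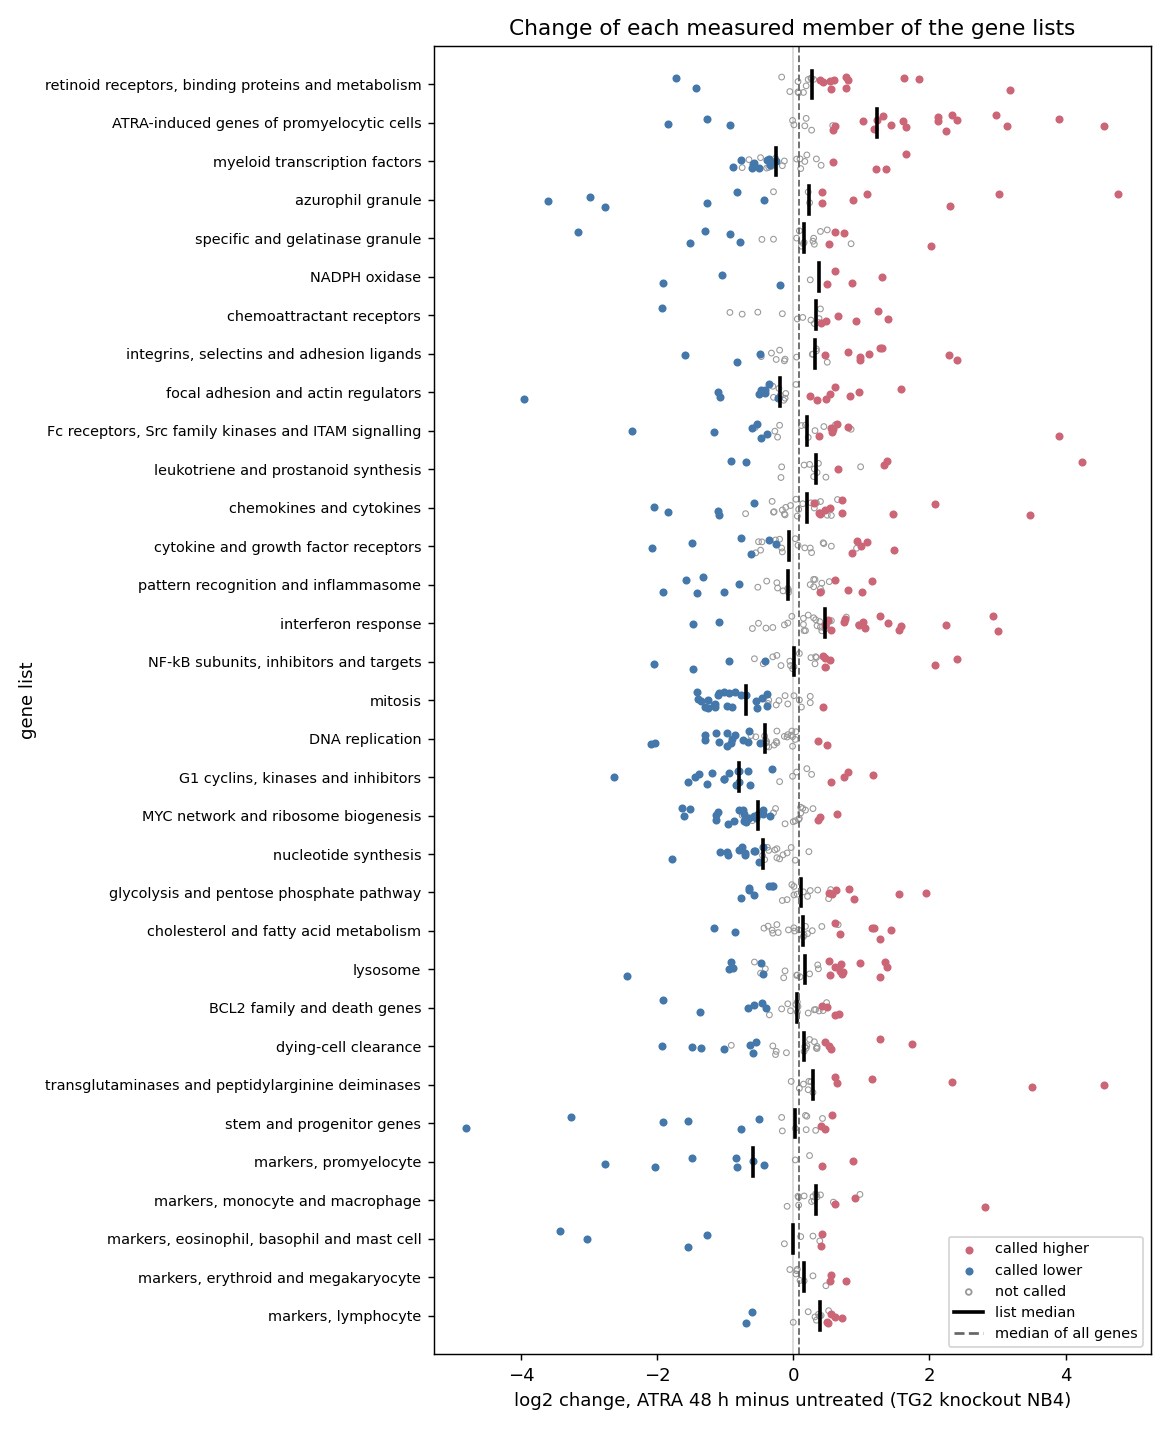
Change from untreated to 48 h ATRA in knockout cells (log2, horizontal axis) of every measured member of the 33 gene lists, coloured by call, with the list median as a bar and the median of all genes, 0.08, as a dashed line. The ATRA-induced list lies highest with a median of 1.23, and the G1 list lowest with −0.79.

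Among myeloid transcription factors 4 of 31 rose and 10 fell, with a median of −0.26. CEBPE, which drives the late steps of granulocyte maturation, rose by 1.65 ± 0.14, from 8.13, 8.09 and 7.87 to 9.47, 9.99 and 9.58. CEBPB rose by 1.36, the repressor GFI1B by 1.22 and SPI1 (PU.1) by 0.58. STAT3 fell by 0.88, RUNX1 by 0.76, GFI1 by 0.60, CEBPD by 0.59 and JUNB by 0.58. CEBPA and IRF8, which act in granulocyte and monocyte commitment, had changes of −0.13 and −0.26 that were not called. The count of falls was 6 without any single untreated replicate and 3 after quantile normalization. A stem and progenitor list of 17 had 3 rises and 6 falls. CYTL1 and EBF3 led the falls, WT1 fell by 1.55 and MYB by 0.76. The rises went to 0 or 1 without treated replicate 1 or 2 or untreated replicate 2 or 3, and to 1 under either rescaling.

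The azurophil granule list, the proteins made at the promyelocyte stage, split: 7 of 16 rose and 6 fell. Besides BPI and DEFA4, SERPINB1, an inhibitor of the granule proteases, rose by 2.31, CD63, a granule membrane protein, by 1.09, AZU1 by 0.88, and PRTN3 and SRGN by 0.42 each. LYZ, described above, had the largest fall of the list, by 3.60. CTSG, the protease cathepsin G, fell by 2.77 ± 0.19, from 10.17, 10.24 and 10.29 to 7.48, 7.67 and 7.23. MS4A3, a membrane protein of granulocyte precursors, fell by 2.99 ± 0.20, from 10.51, 10.45 and 10.69 to 7.72, 7.28 and 7.68. All treated arrays of CTSG and MS4A3 lay more than 2 log2 units below the untreated ones. PRSS57 fell by 0.82 and MPO by 0.43, the latter from a mean of 12.68 to 12.25. In the specific and gelatinase granule list 4 of 22 rose (18.2%) and 5 fell (22.7%), shares near those over all genes, with a median of 0.16. CRISP3 rose by 2.03 (adjusted p = 0.00513) and LTF (lactoferrin) by 0.75, while MMP9, HP (haptoglobin, by 1.51) and SLPI (by 1.30) fell. CAMP, LCN2 and MMP8, which mark the specific granules of later neutrophil stages, had changes of 0.40, 0.15 and 0.50 that were not called. Rises in this list numbered 2 without treated replicate 2 or untreated replicate 3.

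Of 8 measured NADPH oxidase genes, which carry the oxidative burst, 4 rose and 3 fell. CYBA, the small membrane subunit, rose by 1.30, from 8.40, 8.43 and 8.22 to 9.61, 9.90 and 9.44. CYBB, the catalytic membrane subunit, read 10.51, 10.58 and 10.53 before and 11.46, 10.61 and 12.13 after. Treated replicate 2 stood at the untreated level and replicate 3 far above it. The change of 0.86 ± 0.28 was called (adjusted p = 0.0239), but the call was lost without any of the compared arrays except treated replicate 2. The change was 0.49 (adjusted p = 0.129) without treated replicate 3, and adjusted p ran from 0.000808 to 0.129 over the alternatives. RAC2, the haematopoietic GTPase of the complex, rose by 0.62. NCF4, a cytosolic regulator, fell by 1.04 and HVCN1, the proton channel that balances the burst, by 1.91.

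Receptors that guide neutrophils rose in 6 of 18 cases, with 1 fall and a median of 0.34. Their median level before treatment was 5.76, and the part of brightness in the smaller rises was not tested. CXCR2, a receptor for interleukin-8, rose by 1.39, from 5.60, 5.61 and 5.41 to 7.15, 6.73 and 6.90; the groups were far apart. CCR1 rose by 1.25 and CXCR4, the receptor that retains cells in marrow, by 0.92. P2RY2, a nucleotide receptor, was the gene that fell, by 1.93 (2 falls without treated replicate 2 or 3 or untreated replicate 3, and under either rescaling). FPR1, a receptor for bacterial formyl peptides, had a change of 0.31 that was not called. Of 28 cytokine and growth factor receptors 5 rose (17.9%) and 6 fell (21.4%), shares near those over all genes, with a median of −0.06. CSF3R, the receptor of the granulocyte growth factor G-CSF, rose by 1.48, and IFNGR1 by 1.09. IL17RA fell by 2.07 and TGFBR1 by 1.49. The rises numbered 3 without treated replicate 3, and the falls 3 without treated replicate 1.

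Adhesion genes rose in 9 of 24 cases and fell in 3, with a median of 0.32. ITGB7 (by 2.29), ITGAM (CD11b, by 1.31) and ITGAX (CD11c, by 1.27) are integrin chains of leukocytes, and all 3 rose. ICAM1, a ligand of the integrins that hold ITGAM or ITGAX, read 8.34, 8.10 and 8.03 before and 9.69, 10.26 and 11.72 after, a rise of 2.40 ± 0.46. CD44, the hyaluronan receptor, fell by 1.59 ± 0.45 (adjusted p = 0.0104), with a change of −1.28 that was not called without treated replicate 2 (adjusted p = 0.0557, the highest of 0.00218 to 0.0557 over the alternatives). Falls in this list numbered 1 without treated replicate 2, without untreated replicate 1 or 2, and after quantile normalization. In the focal adhesion and actin list 8 of 25 rose and 9 fell, with a median of −0.19. VIM had the largest fall, and the actin cross-linkers ACTN1 and ACTN4 fell by 1.08 and 1.10. The adaptor PXN (paxillin) rose by 1.58 on its brighter probe set, whereas its other probe set had a change of 0.32 that was not called. Rises in this list numbered 5 without treated replicate 1, without untreated replicate 2 or 3, and with centred arrays.

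The list of Fc receptors, Src kinases and their adaptors had 7 rises and 6 falls among 24 members (3 falls after quantile normalization). FGR rose, FYN, another Src family kinase, fell by 1.16, and PIK3CD, the leukocyte PI3 kinase, rose by 0.81. FCGR2A, a low-affinity receptor for IgG, read 7.47, 7.42 and 7.50 before and 4.22, 5.14 and 5.92 after. It fell by 2.37 in arrays that differed among themselves by more than 1 log2 unit. In leukotriene and prostanoid synthesis 4 of 16 rose and 2 fell. Besides ALOX5AP, CYP4F3, which inactivates leukotriene B4, rose by 1.38, and PTGS1 (cyclooxygenase 1) by 1.33, while PLA2G4A, which frees arachidonic acid, fell by 0.91. ALOX5 itself had a change of 0.31 that was not called. The falls numbered 1 after quantile normalization.

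Of 36 chemokines and cytokines 11 rose and 5 fell, with a median of 0.20. Their median level before treatment was 5.93, and the part of brightness in the smaller rises was not tested. CCL24 had the largest rise. CCL2, a monocyte attractant, rose by 2.08 ± 0.22, from 8.53, 8.57 and 8.63 to 10.56, 10.73 and 10.69. TNF fell by 2.04, from 9.19, 9.27 and 9.02 to 7.07, 7.35 and 6.94. In both genes the groups were well apart and the treated arrays close to each other. The number of rises was 4 without treated replicate 2 or without untreated replicate 1, 7 without untreated replicate 2, 5 without untreated replicate 3, and 7 under either rescaling. The NF-kB list had 6 rises and 4 falls among 25, with a median of 0.01. Its inhibitor TNFAIP3 fell by 1.47 ± 0.48 (adjusted p = 0.0232), a call lost without treated replicate 1 or 2, without untreated replicate 1 or 2, and after quantile normalization. Adjusted p ran from 0.00498 to 0.0914 over the alternatives, the latter with a change of −1.20 without treated replicate 1. Rises numbered 3 without untreated replicate 3, and falls 2 without treated replicate 1 and after quantile normalization. Among 27 pattern recognition genes 5 rose (18.5%) and 6 fell (22.2%), shares near those over all genes. The median was −0.07 (0.09 after quantile normalization). The lectin receptors CLEC5A and CLEC4E fell by 1.92 and 1.32, IRAK3 by 1.58 and the DNA sensor IFI16 by 1.42. Rises numbered 3 without any single untreated replicate.

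Interferon-response genes rose in 15 of 41 cases (36.6%) and fell in 2 (4.88%), with a median of 0.47. Their median level before treatment was 6.13, and the part of brightness in the smaller rises was not tested. PSMB9 and PSMB8, which cut peptides for antigen display, led the rises, followed by IRF1 and TRIM22 (1.59). OAS3, an antiviral synthetase, read 6.18, 6.24 and 5.98 before and 7.52, 7.59 and 7.97 after, a rise of 1.56 ± 0.40 (adjusted p = 0.00551) without overlap. IFI35 rose by 1.39. HERC5, a ligase for ISG15, fell by 1.47 and IFITM1 by 1.09. The classical antiviral genes IFIT1, MX1 and ISG15 had changes of −0.13, 0.30 and 0.39 that were not called. In wild-type cells 25 of the 41 rose and the median was 0.92. For the single members, 0 differences between the lines' responses were called by limma and 3 had an unadjusted p under 0.05, so the lower count in knockout cells is not shown as a difference. Medians on the single treated arrays were 0.32, 0.43 and 0.60 in knockout and 0.67, 0.57 and 1.31 in wild-type cells.

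The OAS3 promoter (RefSeq, GRCh38.p14, chr12:112938324-112938493, plus strand) is shown as an example of the interferon list. Capitals mark GAAA followed after any 2 bases by GAAA, the core of the interferon-stimulated response element, searched on both strands of the 300-base windows. A match was found in 22 of 33 interferon genes with a window (66.7%) and in 433 of 14237 genes in all (3.04%), with 1 window per gene. Within the list it stood in 8 of 13 genes that rose and in 14 of the other 20, so its presence did not separate risen genes from the rest in these counts, which were not tested.
OAS3: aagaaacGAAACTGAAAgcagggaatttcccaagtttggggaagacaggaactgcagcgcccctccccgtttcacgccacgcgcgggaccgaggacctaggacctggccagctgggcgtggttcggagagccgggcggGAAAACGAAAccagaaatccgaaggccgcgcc

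Many cell cycle genes fell. Median levels before treatment were 9.63 (mitosis), 9.37 (DNA replication) and 8.76 (G1), and among the brightest 25% of probe sets 42% fell. The part of brightness in the falls of these lists was not tested. Of 35 mitosis genes 23 fell (65.7%) and 1 rose, with a median of −0.69, and 12 fell at least 2-fold. NUSAP1, a spindle protein, went from 10.21, 10.15 and 10.23 to 9.26, 8.77 and 8.80, a fall by 1.25 ± 0.21 (adjusted p = 0.000163). CENPE, a kinetochore motor, fell by 1.40, from 8.23, 8.21 and 8.29 to 6.69, 6.95 and 6.88. The groups did not overlap for either gene. The kinesin KIF20A fell by 1.42 and the checkpoint kinases TTK and BUB1B by 1.35 and 1.30. INCENP, a subunit of the chromosomal passenger complex, was the member that rose, by 0.44 (3 rises without treated replicate 2, 0 without untreated replicate 3 and with centred arrays, 4 after quantile normalization). The list median on the single treated arrays was −0.37, −0.93 and −0.65, lowest on replicate 2.

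In the DNA replication list 15 of 38 fell (39.5%) and 2 rose, with a median of −0.41. That share of falls was near the 42% among the brightest 25% of probe sets. GINS2, a subunit of the replicative helicase, fell by 2.09, from 10.80, 10.68 and 10.73 to 8.70, 9.12 and 8.12, and POLE2, a DNA polymerase subunit, by 2.03. GINS3 and DTL each fell by 1.29. CDT1 and CHAF1A, the members that rose, had changes of 0.36 and 0.50. Rises numbered 1 without any of the compared arrays but treated replicate 3, and 0 with centred arrays. Among G1 cyclins, kinases and inhibitors 16 of 25 fell and 4 rose, with a median of −0.79. CCNE2, the cyclin that opens S phase, fell by 2.64 ± 0.25, from 8.26, 8.39 and 8.34 to 5.93, 5.52 and 5.62. CCND3 fell by 1.44, SKP2 by 1.54, E2F8 by 1.39, CDK6 by 1.27 and CDK4 by 1.20. All 4 members that rose encode inhibitors of cyclin-dependent kinases: CDKN2D (by 1.17), CDKN2B (by 0.80), CDKN1C (by 0.74) and CDKN1A (by 0.55). A further inhibitor, CDKN1B, fell by 0.67.

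The NUSAP1 promoter (RefSeq, GRCh38.p14, chr15:41332731-41332900, plus strand) is shown because it holds both motifs known from mitotic genes, CCAAT and the element TTTGAA (CHR), in capitals. Over both strands of the 300-base windows TTTGAA was found in 20 of 30 mitosis genes (66.7%) against 1696 of 14237 genes in all (11.9%), and CCAAT in 22 of 30 (73.3%) against 5166 (36.3%). In the list TTTGAA stood in 15 of 20 genes that fell and 5 of the other 10, and CCAAT in 15 of 20 and 7 of 10.
NUSAP1: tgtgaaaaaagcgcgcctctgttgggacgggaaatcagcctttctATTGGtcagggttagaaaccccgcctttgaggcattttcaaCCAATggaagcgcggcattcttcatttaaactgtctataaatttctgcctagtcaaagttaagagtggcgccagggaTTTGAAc

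Many growth genes fell as well. Median levels before treatment were 9.60 (MYC network and ribosome biogenesis) and 9.91 (nucleotide synthesis), again bright. The part of brightness in these falls was not tested. In the MYC network and ribosome biogenesis list 20 of 37 fell and 3 rose, with a median of −0.52. UTP20, which processes ribosomal RNA, fell by 1.60 ± 0.27, from 9.36, 9.37 and 9.28 to 8.04, 7.50 and 7.66. POLR1B and POLR1A, subunits of RNA polymerase I, fell by 1.63 and 1.14, and UTP15 by 1.51. MYC fell by 0.65 (adjusted p = 0.00526) and its partner MAX by 1.10. NPM1, MXD4 and MYCL rose, by 0.36, 0.40 and 0.65. After quantile normalization 11 fell and 5 rose. In nucleotide synthesis 12 of 25 fell (48%) and 0 rose, with a median of −0.45 (7 falls after quantile normalization). That share was near the 42% of falls among the brightest 25% of probe sets. PRPS2, which makes the ribose precursor of nucleotides, fell by 1.78, the purine enzymes ADSL and GMPS by 1.07 and 0.98, and TYMS, which makes thymidylate, by 0.96.

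The UTP20 promoter (RefSeq, GRCh38.p14, chr12:101279955-101280124, plus strand) is shown with its E-box CACGTG, the sequence bound by MYC with MAX, in capitals. The same letters read on both strands. They were found in the windows of 14 of 31 genes of the list (45.2%) against 1264 of 14237 genes in all (8.88%). Within the list 12 of 17 genes that fell and 2 of the other 14 held the E-box. This is a description of the list, which was not tested.
UTP20: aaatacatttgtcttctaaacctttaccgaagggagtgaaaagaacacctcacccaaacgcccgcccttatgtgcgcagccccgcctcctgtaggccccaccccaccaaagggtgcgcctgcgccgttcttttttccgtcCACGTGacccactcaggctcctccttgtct

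Metabolic and lysosomal genes moved both ways. In glycolysis and the pentose phosphate pathway 7 of 26 rose and 7 fell, with a median of 0.11. The rises included HK3, the hexokinase of myeloid cells (1.95), PFKFB4 (1.55), PKM (0.89) and ALDOC (0.82). Without treated replicate 3 the change of ALDOC was 0.56 and not called, with adjusted p from 0.00222 to 0.0703 over the alternatives. HK2 and PFKP each fell by 0.65. Falls numbered 3 without treated replicate 2 or untreated replicate 1 and 4 without untreated replicate 2. In cholesterol and fatty acid metabolism 6 of 25 rose and 2 fell. SREBF1, the regulator of lipid synthesis, rose by 1.43, the mevalonate enzyme PMVK by 1.18 and the cholesterol exporter ABCA1 by 1.28. Without treated replicate 3 the change of ABCA1 was 0.98 and not called, with adjusted p from 0.00305 to 0.0679 over the alternatives. CPT1A, which brings fatty acids into mitochondria, fell by 1.17. Among 28 lysosomal genes 11 rose and 6 fell. The proteases CTSS and CTSD rose by 1.38 and 1.35 and the glucuronidase GUSB by 1.28. Another protease, CTSH, fell by 2.44, from 10.15, 10.03 and 9.98 to 7.71, 7.24 and 7.88.

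In the list of survival and death genes 4 of 24 members rose (16.7%) and 6 fell (25%), with a median of 0.06, shares near those over all genes. BCL2, the founding inhibitor of mitochondrial apoptosis, fell by 1.91, from 8.32, 8.23 and 8.34 to 6.31, 6.49 and 6.36, with the groups far apart. BID, a protein that promotes death, fell by 1.37. APAF1, which assembles the apoptosome, rose by 0.67, and XIAP, a caspase inhibitor, fell by 0.66. Over the alternatives their adjusted p ran from 0.000881 to 0.134 and from 0.00805 to 0.0865. APAF1 lost its call without untreated replicate 1 or 2 or treated replicate 1 or 3 (0.39 in the last case), with centred arrays and with only the compared groups. XIAP lost it without untreated replicate 2 or 3 or treated replicate 1 or 2 and after quantile normalization. MCL1, a short-lived survival protein of neutrophils, had a change of −0.08 that was not called. The falls in the list numbered 2 or 3 without any of the compared arrays but treated replicate 3, and quantile normalization gave 8 rises and 2 falls. Of 26 genes for the clearance of dying cells, a process in which TG2 is known to take part, 5 rose (19.2%) and 7 fell (26.9%). Both shares were near those over all genes, and quantile normalization gave 3 rises. MERTK, a receptor for phosphatidylserine bridges, rose by 1.74, from 6.84, 6.59 and 6.57 to 8.41, 7.57 and 9.23. STAB1, a scavenger receptor, fell by 1.49 and ANXA1, a resolving mediator, by 1.36.

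Marker lists of cell types were read as a check of what the samples held. Of 11 promyelocyte markers 7 fell and 2 rose (1 rise without any of the compared arrays but treated replicate 3, and with centred arrays), and the sum of their levels went from 98.2–98.5 to 90–92.2. CST7 fell by 2.03. Of 17 monocyte and macrophage markers 3 rose (17.6%) and 0 fell (6 rises after quantile normalization), and the sum went from 97.6–99.4 to 106–108. The share that rose was near the 18.3% over all genes. The rises were S100A8, a calcium-binding protein also abundant in neutrophils, by 2.81 ± 0.43 (from 5.11, 5.18 and 4.92 to 7.55, 7.75 and 8.34), MARCO by 0.91 and CD14 by 0.61. CD14 ended at a mean level of 6.34 and CSF1R at 6.37, from 5.73 and 6.30. Of 10 eosinophil, basophil and mast cell markers 4 fell, EPX by 1.54 next to PRG2 and HDC, and 2 rose, with the sum going from 69.2–69.7 to 59.8–62.9. Both rises were lost without either of treated replicates 1 and 2, without untreated replicate 2 or 3, and under either rescaling, and 1 was lost without untreated replicate 1. Of 11 erythroid and megakaryocyte markers 3 rose (5 without treated replicate 3). Of 15 lymphocyte markers 5 rose and 2 fell (8 rises without treated replicate 3, and 1 fall without treated replicate 2 or untreated replicate 3). Some of these markers are on dim probe sets, and the dimmest 25% of probe sets had a median change of 0.34. The part of brightness in the small rises of these lists was not tested.

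Calls were also counted by RNA class, with no test between classes. Of 17798 probe sets of protein-coding genes 3127 rose and 4578 fell, 290 and 1577 of them at least 2-fold. Of 173 microRNA genes 74 rose and 9 fell, with a median of 0.46, and of 690 long noncoding RNAs 157 rose and 42 fell, with a median of 0.27. Small nucleolar RNAs, which guide the modification of ribosomal RNA, rose in 44 and fell in 52 of 178 cases, and 23 and 35 of these changes were at least 2-fold. Of 37 small nuclear RNAs, among them those of the spliceosome, 18 fell and 1 rose, 14 of the falls being at least 2-fold. These counts take only probe sets annotated to a single gene. The median level over all arrays was 6.78 for protein-coding, 4.79 for microRNA, 5.68 for long noncoding, 5.97 for small nucleolar and 7.08 for small nuclear RNA probe sets, and the part of brightness in these counts was not tested.

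The 3 treated knockout arrays did not lie equally far from the untreated ones. Counted against the untreated mean, 4677, 7150 and 4390 probe sets differed by at least 2-fold on treated replicates 1, 2 and 3. Slopes on the wild-type change were taken along the 4374 probe sets called with at least a 2-fold difference in wild-type cells. They were 0.823, 0.951 and 0.846 for the single knockout arrays, and 98.3%, 98.3% and 98.5% of the probe sets moved in the same direction. The probe sets were selected by those same wild-type changes, so slopes below 1 do not show a weaker knockout response. Of all called members of the lists, ICAM1, VIM, FCGR2A and MERTK had the widest range over the 3 treated arrays. All 4 were highest on replicate 3, whether they rose or fell. In wild-type cells at 48 h ICAM1 read 10.55, 11.12 and 12.28, VIM 6.14, 6.68 and 8.65, FCGR2A 4.88, 4.71 and 6.54, and MERTK 8.75, 8.64 and 9.91, so replicate 3 was the highest array for these genes in that line as well.

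**Figure D4:**
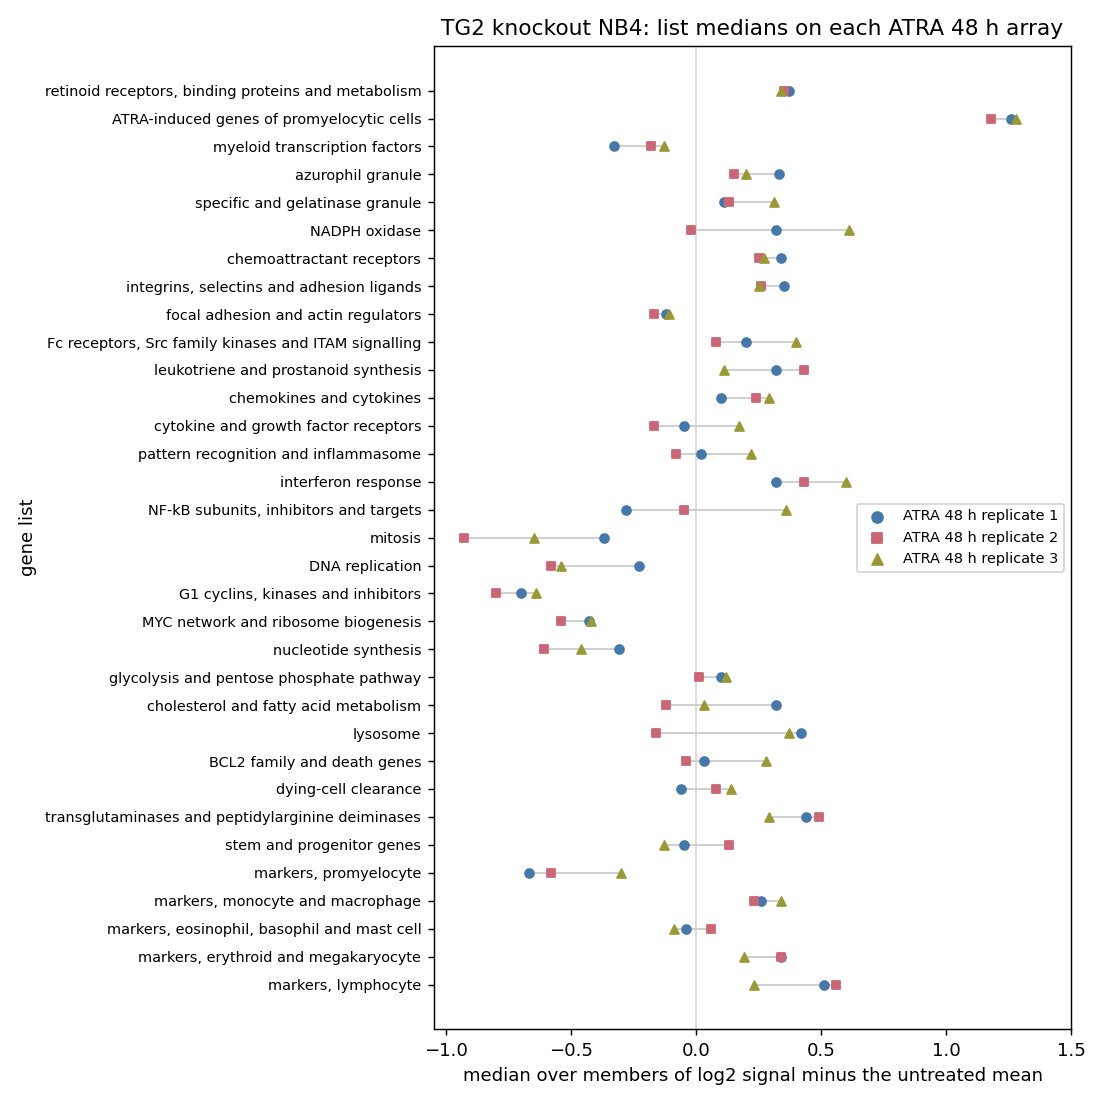
Median change from the untreated knockout mean (log2, horizontal axis) of gene lists (vertical axis) on each of the 3 treated knockout arrays. The mitosis list lies at −0.37, −0.93 and −0.65 on replicates 1, 2 and 3, while the ATRA-induced list stays between 1.18 and 1.28.

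Whether the knockout line answered ATRA differently from wild type was tested as the difference between the changes of both lines, which share no array. Of 33297 probe sets 1 (0.003%) was called, and 960 (2.88%) had an unadjusted p under 0.05. The fit takes 1 spread per probe set over all 6 groups, of which the untreated ones were tighter. That spread is not exact for this difference, and its p-values may be too large. The called probe set, 7958377, has no gene in the platform annotation. It read 2.03, 1.80 and 1.66 before and 4.20, 3.66 and 4.18 after treatment in knockout cells, and 2.80, 2.46 and 2.73 before and 2.17, 1.94 and 1.81 after in wild-type cells. Knockout arrays went up and wild-type arrays went down, and the difference was 2.87 ± 0.31 (95% interval 2.22 to 3.53, adjusted p = 0.00251). Levels at 72 h in knockout cells were 3.48, 3.69 and 3.73. All of these values are in the dim range of the arrays.

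None of the differences between the lines in this paragraph passed the adjusted threshold, which does not show that the responses were alike. All 24 genes with the largest changes in knockout cells were also called in wild-type cells. The response was smaller in knockout cells for 9 of the 12 highest and 6 of the 12 lowest, with an unadjusted p under 0.05 for 4 and 1 of them. BPI rose by 4.77 in knockout and 5.47 in wild-type cells (difference −0.70 ± 0.47, unadjusted p = 0.158), and CCL24 by 3.48 and 4.52 (difference −1.04 ± 0.32, unadjusted p = 0.00484). The smallest unadjusted p-values on the side of a smaller rise were those of TGM2, LGALS3BP and CXCR2. LGALS3BP, a secreted galectin-binding glycoprotein, had a change of 1.14 (from 9.11, 8.97 and 8.91 to 10.19, 9.96 and 10.27) against 2.01 in wild-type cells, a difference of −0.87 ± 0.17 (unadjusted p = 0.00012). CXCR2 had 1.39 against 2.29, a difference of −0.91 ± 0.19 (unadjusted p = 0.000194). Among named genes with a positive difference, RAB27B, a GTPase of granule and vesicle release, had −1.70 (from 8.16, 8.20 and 8.28 to 6.63, 6.56 and 6.34). In wild-type cells it had −2.79, so the fall was smaller in knockout cells. The difference was 1.09 ± 0.22 (unadjusted p = 0.000142). RPF2 and OC90 followed, with differences of 0.57 ± 0.15 and 0.74 ± 0.21. RPF2 had a change of 0.02 on this probe set and −0.86 on its other one. Of the list members above, ITGAM rose by 1.31 against 2.10 (unadjusted p = 0.00557), HK3 by 1.95 against 2.77 (unadjusted p = 0.00222), CYP26A1 by 0.78 against 1.20 (unadjusted p = 0.0283) and CCL2 by 2.08 against 1.34 (unadjusted p = 0.0269). Over all 131 named genes 17 had an unadjusted p under 0.05 and 0 were called by limma, beside 2.88% of all probe sets with such a p. That count is partly fixed by the choice of genes, since some were named for the smallest p of this difference.

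**Figure D5:**
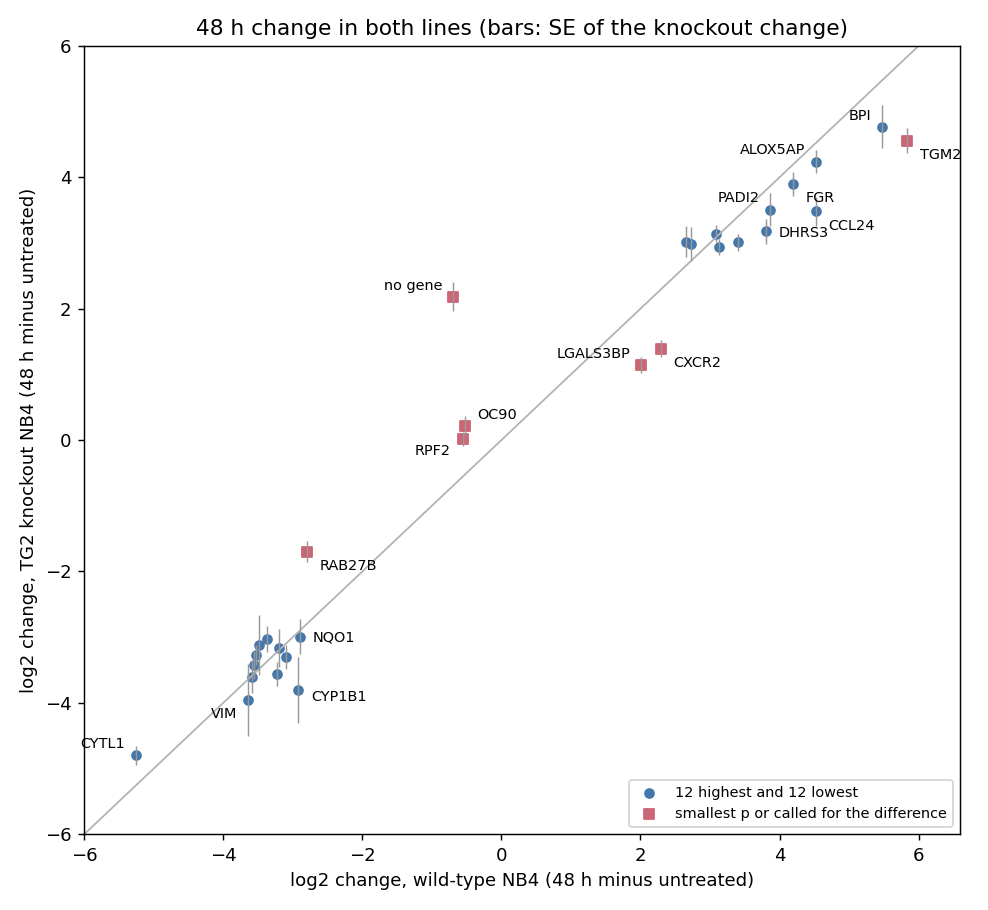
Change from untreated to 48 h ATRA (log2) in wild-type cells (horizontal axis) against TG2 knockout cells (vertical axis) for the 24 genes with the largest changes and those with the smallest p for the difference, with bars for the SE of the knockout change and the line of equal change. TGM2 lies below the line at 5.84 and 4.56, and the called probe set without a gene lies at −0.69 and 2.18.

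The position of 48 h in the course of treatment was tested directly against 72 h in knockout cells, since both changes share the untreated arrays. With limma 0 probe sets (0%) were called, and 2732 (8.2%) had an unadjusted p under 0.05. The fit takes 1 spread per probe set over all 6 groups. The median SD was 0.243 at 48 h and 0.226 at 72 h, against 0.0985 in untreated knockout cells. Unadjusted p-values between the treated groups may therefore be too small. The number of calls was 14 without knockout 72 h replicate 2. Of the 131 named genes 6 had an unadjusted p under 0.05, none of them called: from 48 to 72 h XIAP differed by 0.50, PCGF6 by 0.47, DHRS3 by 0.44, CXCR2 by 0.32, TNFSF10 by −0.36 and TNF by −0.44. TGM2 read 11.61, 10.87 and 11.25 at 72 h and overlapped with its 48 h arrays.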

How the data were processed

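The deposited values are 1 log2 level per probe set and array. How the authors summarised and normalized them, and the log base, is not given in the sources used here; log2 was taken from the range of 0.73 to 13.56. Total RNA was extracted from whole cultures and biotin-labelled, per the labels' protocols. Levels were used as deposited. A mean per group was fitted on all 18 arrays with limma 3.58.1 (R 4.3.3; eBayes with a mean-variance trend), with Benjamini-Hochberg adjustment over 33297 probe sets and calls at an adjusted p under 0.05. Knockout 48 h minus untreated was the main contrast, with the difference of response from wild type and 72 h minus 48 h beside it. The fit was tested on simulated data with the same spread in every group. That test does not cover the wider spread of the treated arrays here.

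Probe sets were named from the platform annotation: 19460 have 1 gene, 1754 several and 12083 none, and 974 hold the same values as another. For lists each gene was read on its brightest single-gene probe set, and 734 of 798 genes in 33 lists were measured. Members and lists were chosen with earlier results of these data known. Named genes were TGM2 and the 12 highest and 12 lowest called changes without overlap between groups. The highest and lowest were taken among single-gene probe sets, with unnamed loci and small RNA genes passed over. Also named were, per list, the called members that moved most, at most 4, and the 4 widest ranges. The 3 smallest p-values in each direction for the difference of response were named as well. Further list members were named for their known role after their values were seen. Array number limits the precision. In all, 15 alternatives were tried: quantile normalization, centring, brighter or single-gene probe sets, other variance settings, group weights, a replicate block, fewer groups, and leaving out each of the 6 arrays.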

Additional observations from a re-analysis of the deposited data

Results flagged for a closer look

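For 1 result the 48 h change differed between the lines by the test of the difference itself. Probe set 7958377, which has no gene in the annotation, changed by 2.18 ± 0.22 in knockout and by −0.69 in wild-type cells, a difference of 2.87 (adjusted p = 0.00251, limma). The value is in the dim range, and the cause was not tested. With 3 arrays per group, single arrays were not screened as outliers.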

How the results depend on the processing

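Calls at 48 h numbered 10606–13731 when any of the 6 arrays was left out, and no probe set called both as reported and under an alternative changed direction. With probe sets of 1 gene there were 8699 calls, 3828 of them higher, and 2058 of at least 2-fold, as fewer probe sets were tested; brighter probe sets gave 3784 higher calls. The difference of response had 0 calls among brighter and among single-gene probe sets, 2 with the compared groups only, and 1–2 with an array left out. The 72 h against 48 h test had 3 calls without a variance trend and 0–14 with an array left out. The replicate block, which pairs arrays by number, gave 14125 calls at 48 h, 1 for the difference of response and 0 for 72 h against 48 h. The numbers were not taken as pairing: deviations from the group mean of same-numbered arrays correlated at 0.0325, −0.025 and −0.0369 between untreated and treated knockout cells and at 0.196, 0.194 and 0.089 between the lines at 48 h, where different numbers gave −0.238 to 0.0936.

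List medians moved with the scaling, and the cause was not tested. After quantile normalization they were 0.21 (retinoid), 1.38 (ATRA-induced), −0.13 (transcription factors), 0.41 (azurophil), 0.20 (chemoattractant receptors), 0.26 (adhesion), −0.02 (focal adhesion), 0.39 (Fc and Src), 0.09 (pattern recognition), −0.19 (replication), −0.50 (G1), −0.24 (MYC), −0.20 (nucleotides), 0.22 (glycolysis), 0.05 (dying-cell clearance), −0.13 (eosinophil) and 0.04 (erythroid). With centred arrays they were 0.20 (retinoid), 1.15 (ATRA-induced), 0.26 (chemoattractant receptors), 0.24 (adhesion), −0.27 (focal adhesion), −0.60 (MYC), 0.03 (glycolysis), 0.25 (monocyte) and −0.09 (eosinophil). Among brighter probe sets, with fewer members, they were 0.14 (retinoid), 0.40 (chemoattractant receptors), 0.38 (Fc and Src), −0.59 (dying-cell clearance), 1.16 (transglutaminases and deiminases), −1.16 (stem), −0.82 (promyelocyte), −1.54 (eosinophil) and 0.42 (erythroid). With an array left out the ranges were 0.24–0.35 (retinoid), 0.27–0.38 (chemoattractant receptors), 0.26–0.33 (adhesion), −0.22 to −0.10 (focal adhesion), −0.82 to −0.63 (G1), −0.56 to −0.44 (MYC), 0.26–0.42 (transglutaminases and deiminases), −0.12 to 0.17 (stem) and 0.30–0.42 (monocyte).

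Of the 131 named genes 118 kept their call and direction under every alternative run on them; brighter probe sets held 119 of the 131. CYBB, CD44, TNFAIP3, ALDOC, ABCA1, APAF1, XIAP, RNASE2, ALAS2, KLF1, CD3D and IL7R lost the call under at least 1, and RPF2, not called, went from 0.02 to −0.06 with centred arrays and lay between −0.06 and 0.07 with an array left out (−0.01 without untreated replicate 1).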
